A study of Mus musculus with 4 samples.

Results

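The lung preparations of this series held 126 cells with the RNA of venous and large-vessel endothelium, of 1283 lung cells kept. A cell was counted as a member of the class when it had at least 500 UMIs (unique molecular identifiers, 1 per captured RNA molecule) and at most 15% mitochondrially encoded UMIs, and when at least 3 of 8 marker genes had a UMI. The 8 markers were Slc6a2, Vwf, Vcam1, Prss23, Cpe, Ch25h, Cytl1 and Mgp. Cells with a UMI in 2 or more of the lymphatic genes Ccl21a, Mmrn1 and Reln, or with any UMI of the leukocyte gene Ptprc, were left out. The members were thus chosen by the UMI counts of these 12 genes in the lung libraries, and those values are described below without a test. The members made up 74 of 775 kept cells in the wild-type lung library (9.55%, exact Clopper-Pearson 95% interval 7.57 to 11.8) and 52 of 508 in the knockout lung library (10.2%, 7.74 to 13.2), so the shares differed by less than their counting error.

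The cells came from female Apoe knockout mice, strain C57/B6J, in which endothelial cells and their descendants carry an eYFP label, and all mice had eaten a Western diet for 5 weeks. The wild-type group (EC-Oct4+/+, 2 mice) and the knockout group (EC-Oct4Δ/Δ, 3 mice, Oct4 deleted in endothelial cells; the gene is Pou5f1) shared the Apoe knockout, the label and the diet. The left lung lobes went through digestion with actinomycin D present at 1 µg/mL, eYFP+ cells were sorted with the gate set on littermates negative for Cdh5, and the cells of each group were captured in a 10x Genomics Chromium library. There was 1 lung library and 1 aorta library per genotype, and the files do not tell which mouse a cell came from. All differences between genotypes below therefore have no replicate check and carry no test; intervals are 95% intervals that cover counting error only.

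Blood leaves the lung through venules and pulmonary veins, whose endothelium is known for the venous transcription factor Nr2f2 and for storing von Willebrand factor and P-selectin for release. The walls of pulmonary arteries and veins hold elastic matrix, and their lining differs from the alveolar capillaries, which consist of general capillary cells and of the large, thin aerocytes that face the air space. Slc6a2 encodes the noradrenaline transporter, which lung endothelium uses to clear noradrenaline from blood. Cytl1 and Mgp, the latter an inhibitor of calcification, mark large vessels.

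The wild-type lung file held 800 barcodes and 1506574 UMIs and the knockout file 529 barcodes and 1052504 UMIs. The filters left out 25 and 21 of these barcodes. Members had a median of 1671 UMIs in the wild-type and 2510.5 in the knockout library, against 1645 and 1673 in the other kept cells, so knockout members were the deepest of these groups. Levels are given as CPM, the summed UMIs of a gene over a group of cells, scaled to a fixed total of the group's UMIs. The members' sums rested on 164079 and 128993 UMIs, and those of the other kept cells on 1329838 and 911633. No cell barcode was shared by members of both lung libraries, and 1 member of each shared its barcode with a cell of an aorta library. Pou5f1 had 0 UMIs in the members of either library, for which a floor of 3 counts allows up to 18.3 CPM (wild type) and 23.3 CPM (knockout), so the deletion could not be checked in these cells. Scrublet, a doublet caller, marked 10 wild-type and 4 knockout cells, 1 of them a member; none was removed.

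The genes that chose the class are given as a description only. Vwf was the marker found in most members, in 66 of 74 wild-type and 52 of 52 knockout members, at 3645 and 3442 CPM against 223 and 286 CPM in the other kept cells. Slc6a2 had a UMI in 30 and 26 members, at 597 and 861 CPM, against 2.26 and 1.10 CPM in the others. Mgp was present in 46 and 27 members, Cytl1 in 41 and 32, and Prss23, a serine protease, in 51 and 37. Vcam1, an adhesion receptor for leukocytes, was present in 36 and 28, Ch25h, which makes 25-hydroxycholesterol, in 31 and 19, and the peptide-processing carboxypeptidase Cpe in 25 and 18. Among aerocyte marker cells, Slc6a2 had a UMI in 0.757% of 132 wild-type cells and in 0 of 97 knockout cells, which allows a share of up to 3.09% of cells with a UMI, at median depths of 2336.5 and 2033 UMIs. These cells were taken from outside the class, so the rule, which uses Slc6a2, in part set their low share, and it is no check on the marker. Of the wild-type members, 29 had exactly 3 markers and 2 had all 8; of the knockout members, 15 had 3 and 3 had all 8.

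Endothelial genes were present in nearly all members, and the label covers cells of more than 1 vessel type, as shown further on. Against it stood 3 cells of the wild-type library, which had 10 or more UMIs summed over the fibroblast or smooth muscle marker lists, a limit set after the values were seen. The first had 11680 UMIs, of which 333 were fibroblast markers and 598 were Gsn, the actin-severing protein gelsolin, and only 2 UMIs of the pan-endothelial genes. Another had 3709 UMIs, 175 of them fibroblast markers and 142 of these from Dcn, the collagen-binding proteoglycan decorin, and 0 pan-endothelial UMIs. The last had all 8 markers, 81 pan-endothelial UMIs and 110 UMIs of the actin-binding protein gene Tagln among 10893 UMIs, with 0 of the smooth muscle actin gene Acta2. The other 71 and 52 members each had at least 2 pan-endothelial UMIs, with medians of 20 and 29.5, and at most 2 fibroblast and 3 smooth muscle UMIs. Over the whole fibroblast list of 8 genes the members summed to 3151 CPM (wild type), 65.3 CPM without the 3 cells, and 7.75 CPM (knockout). The macrophage and monocyte markers summed to 12.2 and 7.75 CPM in members against 526 and 664 CPM in the others. T cell and B cell markers were at 0 in members of both libraries.

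**Figure D1:**
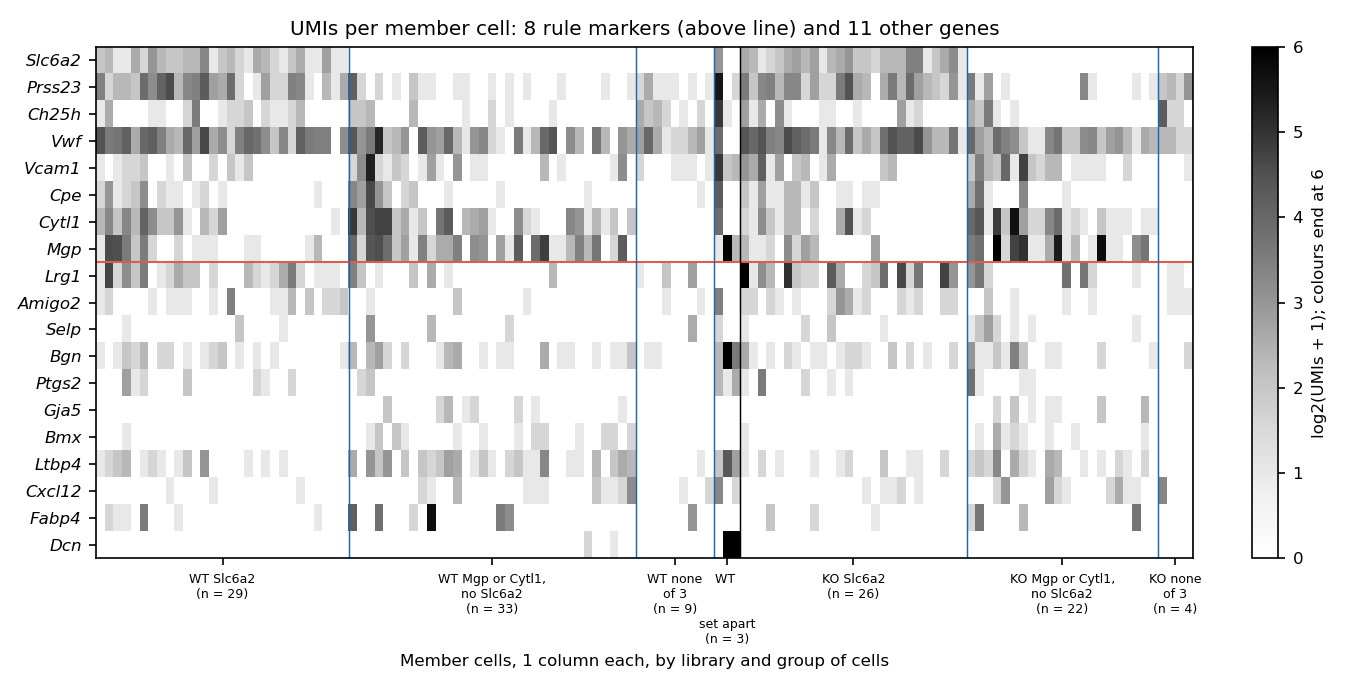
Each column is 1 of the 126 member cells and each row a gene, with the 8 rule markers above the line and 11 other genes below it; the shade is log2(UMIs + 1). Most Slc6a2 cells (29 wild-type, 26 knockout) show Prss23 and Lrg1. Gja5 and Bmx appear in only a minority of the Mgp or Cytl1 cells without Slc6a2 (33 and 22), and Dcn is dark in 2 of the 3 wild-type cells set apart.

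Against the other kept lung cells, of 3240 genes measured, 108 exceeded the others by 2-fold or more in members of both libraries (3.33% of genes), and 111 fell short of them by as much (3.43%). The 108 include the 8 rule markers, and the comparison is a description, since expression chose the members. The median over all measured genes was a log2 ratio of -0.10 in the wild-type and 0.08 in the knockout library. Without the cells rich in fibroblast or smooth muscle markers the counts were 106 (3.26% of 3253) and 115 (3.54%), and 100 of the higher genes were shared. Genes were named by the rank of their interval bounds in the weaker library, and a few beside them as members of the lists. Member levels below include the cells set apart unless stated otherwise.

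Of 14 venous genes beyond the markers, 10 were measured, 7 were higher and 1 was lower, with median log2 ratios of 1.64 and 2.65. Selp, the P-selectin that tethers leukocytes, was at 152 CPM in wild-type members (25 UMIs in 8 cells) against 6.02 CPM in the others, a 25.3-fold ratio (11.1 to 65.0). In the knockout library it was at 171 CPM against 0, at least 51.8-fold higher by the 3-count floor. Selp is also on the list of bronchial and systemic capillary or venule genes. Of the 4 genes of that list measured, Selp and Ackr3 were higher in both libraries and none was lower. Amigo2, an adhesion protein, was 9.61-fold higher (6.28 to 14.8) in the wild-type and 10.5-fold (6.39 to 17.4) in the knockout library, from 311 and 333 CPM. Nr2f2 was at 146 against 57.1 CPM in the wild-type and 163 against 18.6 CPM in the knockout library, ratios of 2.56 (1.55 to 4.10) and 8.73 (4.39 to 17.6). Csrp2 stood at 829 and 744 CPM, 4.61- and 4.49-fold higher. Lrg1, a secreted glycoprotein that modulates TGF-beta signalling, was at 811 CPM against 241 in the wild-type and 2264 against 181 in the knockout library, 3.37-fold (2.73 to 4.14) and 12.5-fold (10.3 to 15.2). Among the others, lymphatic marker cells (a UMI in 2 or more of the lymphatic genes) had Lrg1 at 1010 and 1099 CPM, in the wild-type library above the members. The only list member lower in both was Emp2, at 30.5 and 31.0 CPM against 1206 and 1271 in the others.

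Of 27 arterial genes, 16 were measured and 6 were higher in members in both libraries, with none lower and median log2 ratios of 0.72 and 0.75. Gja5, the connexin 40 of arterial gap junctions, was at 97.5 against 8.27 CPM in the wild-type (11.8-fold, 5.14 to 28.1) and 116 against 8.78 in the knockout library (13.3-fold, 5.27 to 36.1). The kinase gene Bmx was at 140 against 27.1 CPM and 109 against 24.1 CPM. Mecom, a transcription factor, reached 152 against 14.3 CPM in the wild-type and 62.0 against 18.6 in the knockout library. Of the elastic matrix list, 5 genes were measured, 4 higher and 1 lower. Ltbp4, which holds latent TGF-beta in elastic fibres, was at 853 and 426 CPM against 131 and 86.7. Its level was not particular to members, since lymphatic marker cells, which are among the others, were at 945 and 843 CPM. Elastin, Eln, stood at 280 and 225 CPM against 111 and 68.0, and Fbln5, a fibre-assembly protein, at 85.3 and 171 against 21.8 and 21.9. Bgn, a small matrix proteoglycan, was 18.0-fold higher in wild-type members (932 against 51.9 CPM) and 46.3-fold higher in knockout members (457 against 9.87); without the cells set apart the wild-type ratio was 24.4.

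The highest-ranked gene outside the rule was Ptgs2, the inducible cyclooxygenase that makes prostanoid precursors. Ptgs2 was at 195 CPM in wild-type and 248 CPM in knockout members, 32 UMIs in each, against 2 UMIs in the other cells of each library. These UMIs lay in 12 of 74 wild-type and 9 of 52 knockout members, and single knockout cells held 13 and 11 of them. Without the cells set apart, Ptgs2 had 22 wild-type UMIs (160 CPM) and ranked below Selp. The ratios were 130 (33.1 to 1117) and 113 (28.9 to 974). The prostacyclin synthase Ptgis was at 226 and 69.8 CPM against 19.6 and 15.4, and Nos3, which makes nitric oxide, at 79.2 and 101 against 18.0 and 15.4. With all members Ptgis was 2-fold or more lower in knockout than in wild-type members. Without the cells set apart it was not among the genes called lower. Of the inflammatory activation list, 9 genes were measured, 5 higher and 0 lower, with medians of 1.20 and 1.18. Icam1, the adhesion receptor for integrins, was at 969 and 1209 CPM against 361 and 387, and the NF-kappaB modulator Nfkbiz at 311 and 132 against 80.5 and 58.1. Tnfaip3, 1 of the 5, was 1.90-fold higher in the wild-type library without the cells set apart. Ackr3, a scavenging receptor for the chemokine Cxcl12, was at 341 and 674 CPM against 71.4 and 69.1. Other genes of the rank were Ctps, Bst1, Fabp4, Myof, Adgrg6, Tmem252, Samd5, Ccn2, Plac8, Emp3, Ctsh, Rnd1, Cd81 and Net1; the fatty acid carrier Fabp4 was at 768 against 91.0 CPM and 279 against 7.68 CPM. Tmem252 stood at 896 and 752 CPM against 126 and 111, and Bst1, an ectoenzyme that cleaves NAD, at 146 and 140 against 3.76 and 6.58.

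Among 15 endothelial transcription factors measured, Nr2f2, Mecom and Gata6 were higher and Ets2 and Tbx3 lower in both libraries. Gata6 was at 116 CPM against 22.6 (wild type) and 77.5 against 26.3 (knockout). Tbx3 was at 91.4 against 229 CPM and 69.8 against 240. Of 13 genes of BMP and TGF-beta signalling, Bmp4, a ligand, was higher at 146 and 132 CPM against 39.1 and 17.5, and none was lower. Of 18 immediate early genes, Ccn1 and Ccn2 were higher and none lower: Ccn1, a matricellular protein, was at 1469 and 899 CPM against 357 and 351, and Ccn2 at 213 and 240 against 27.1 and 32.9.

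Aerocyte genes were low in members. Of 15 aerocyte genes, 11 were measured and 8 were lower in both libraries, none higher, with medians of -2.26 and -1.91. Car4, the membrane carbonic anhydrase of aerocytes, had 1 UMI in the members of each library, 6.09 and 7.75 CPM against 1348 and 1357. Fibin had 0 UMIs in members against 610 and 518 CPM in the others, at least 33.4- and 22.3-fold lower. The endothelin receptor Ednrb was at 6.09 and 31.0 CPM against 456 and 404. Of 15 general capillary genes, 13 were measured, of which 5 were lower, none higher and 8 called neither way, with medians of -0.55 and -0.42. Gpihbp1, which holds lipoprotein lipase on capillaries, was at 823 and 985 CPM in members against 1590 and 1494 in the others, under the 2-fold limit; it was chosen after its values were seen. Kit, the receptor of stem cell factor, was at 42.7 and 38.8 CPM against 145 and 163. Igfbp7 was at 914 and 279 CPM against 4100 and 3524, and Kdr, the main VEGF receptor, at 122 and 155 against 456 and 471. The wild-type level of Igfbp7 includes the cells set apart. Without them it was at 53.5 CPM in the wild-type Slc6a2 cells and 478 CPM in the Mgp or Cytl1 cells described below.

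**Figure D2:**
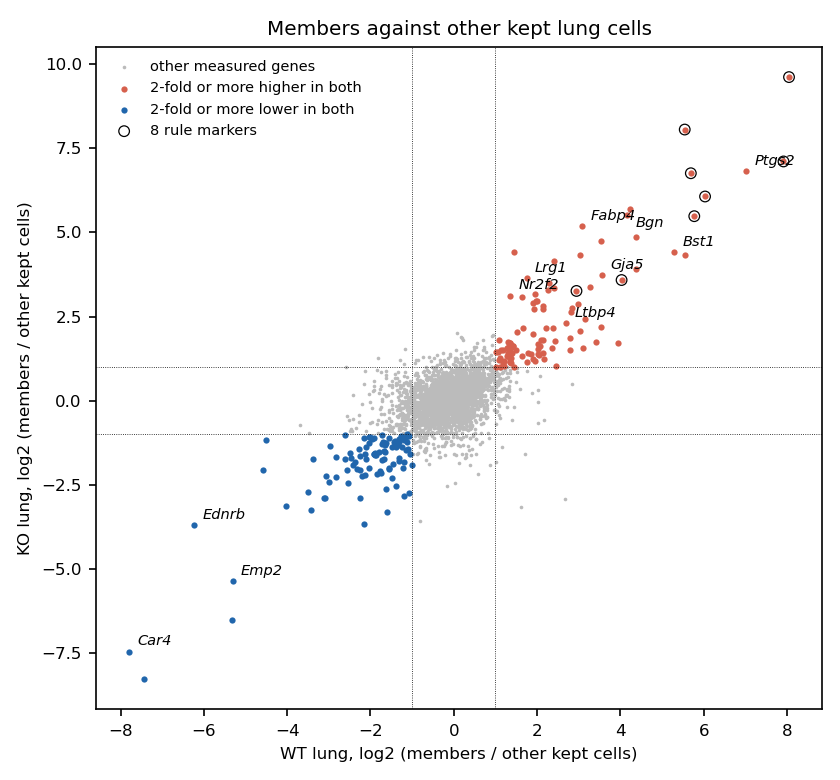
Each point is a measured gene, with the log2 ratio of members to other kept cells in the wild-type library on the x axis and in the knockout library on the y axis; dotted lines mark 2-fold. Most genes lie near 0 (medians -0.10 and 0.08), the 8 rule markers are circled, and Ptgs2 and Car4 lie far from 0 in both libraries.

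Other genes differed with the number of markers detected, on both sides of the limit of 3. Without the cells set apart, wild-type cells with 0 markers had Car4 at 2139 CPM, those with 2 markers, just outside the rule, 225 CPM, and those with 3, just inside it, 21.1 CPM. The knockout series was 2012, 202 and 29.1 CPM. Lrg1 ran the other way, with 180 CPM at 0 markers, 374 at 2, 317 at 3 and 1591 at 6 to 8 in wild-type cells, and 138, 170.5, 1046 and 4239 CPM in knockout cells. Gja5 was highest at 4 to 5 markers, 299 and 185 CPM, and had 0 UMIs at 6 to 8 in either library. Cells with 6 to 8 markers were few (19 and 12). Depth moved with the number of markers, with median UMIs of 1482 and 1849 at 3 markers and 2324 and 2761 at 6 to 8, and its part in these levels was not tested.

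**Figure D3:**
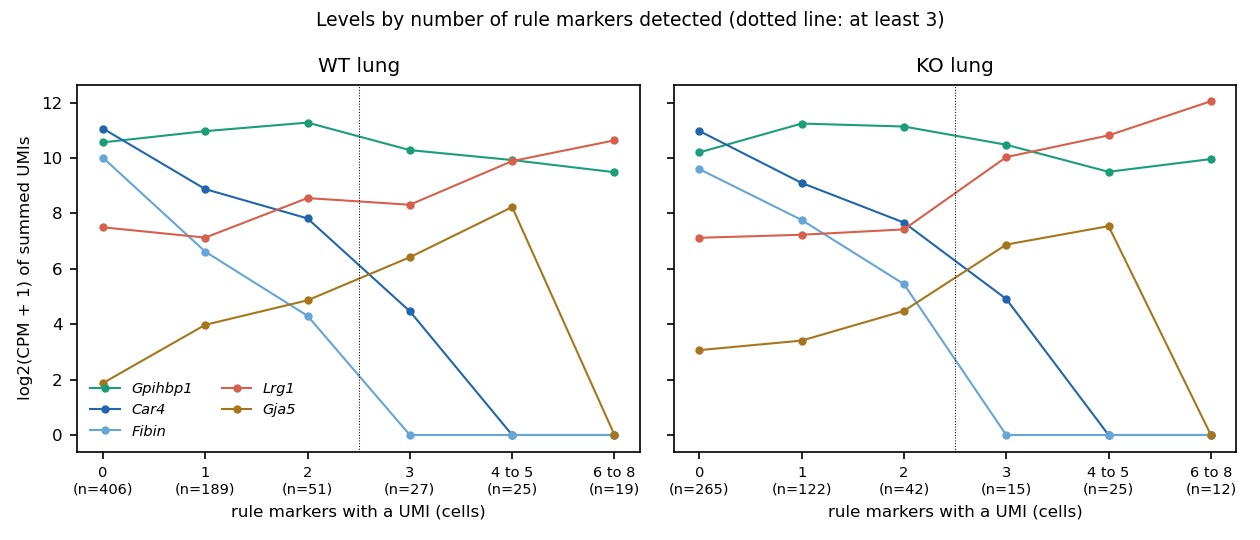
Levels of 5 genes, as log2(CPM + 1) of summed UMIs, by the number of rule markers with a UMI, for wild-type (left) and knockout (right) lung cells without the cells set apart. Car4 has 0 UMIs from 4 markers on and Fibin from 3, Lrg1 is highest at 6 to 8 markers, and Gja5 at 4 to 5.

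Within the class, cells with a UMI of Slc6a2 were set against cells with Mgp or Cytl1 and no Slc6a2 UMI. These groups were chosen after their values were seen and leave out the 3 cells set apart. The Slc6a2 cells were 29 of 71 wild-type (40.8%, 29.3 to 53.2) and 26 of 52 knockout members (35.8 to 64.2), and the Mgp or Cytl1 cells were 33 (46.5%) and 22 (42.3%). The split is by detection of Slc6a2, since 20 wild-type and 14 knockout Slc6a2 cells also had a UMI of Mgp or Cytl1, and 9 and 12 had neither. A UMI of none of the 3 genes was found in 9 and 4 cells. Of 1544 genes, 64 were 2-fold or more higher in Slc6a2 cells in both libraries (4.15%), and 52 as much lower (3.37%), with all-gene medians of 0.02 in each. Prss23, 1 of the rule markers, was at 3444 against 522 CPM in the wild-type and 2715 against 588 in the knockout library.

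Of 9 venous genes measured, Amigo2 and Lrg1 were higher and Selp lower in Slc6a2 cells in both libraries, with median log2 ratios of 0.55 and 0.98. Of 11 general capillary genes 2 were higher and 1 lower, with medians of 0.64 and 0.77, and of 4 aerocyte genes 1 was higher, with medians of 0.81 and 0.98. Lrg1 stood at 1713 CPM in them and 403 in the Mgp or Cytl1 cells of the wild-type library (4.25-fold, 2.75 to 6.78), and at 3965 and 930 CPM in the knockout library (4.26-fold, 3.12 to 5.92). Amigo2 was at 607 against 74.6 CPM and 559 against 114. Ackr3 was at 660 against 134 CPM and 1069 against 361. Lbp, an acute-phase protein that binds bacterial lipopolysaccharide, was at 589 against 104 CPM and 691 against 133, and Hpgd, which inactivates prostaglandins, at 3765 against 1538 and 3126 against 1557. The capillary genes Gpihbp1 and Cd36 were about 2-fold higher in Slc6a2 cells, at 1178 against 567 and 2195 against 1060 CPM in the wild-type library. Nr2f2 differed from library to library, at 196 against 134 CPM in the wild-type and 296 against 38.0 in the knockout library.

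The genes highest in the Mgp or Cytl1 cells were in part arterial list genes. Fam3c, Cst3, Igfbp7, S100a6 and the general capillary list gene Hilpda, none of them arterial, were also of that rank. Plat, the tissue plasminogen activator of the haemostasis list, was at 970 CPM against 17.8 in the wild-type (54.4-fold, 9.42 to 2180). In the knockout library it was at 816 against 0 CPM, at least 16.5-fold by the floor. Gja5 was at 239 and 285 CPM against 0 in the Slc6a2 cells of both libraries, at least 4.46- and 5.77-fold. These levels rest on 16 and 15 UMIs, and Gja5 had a UMI in 10.8% of all wild-type and 13.5% of all knockout members. Bmx stood at 328 against 17.8 CPM and 247 against 16.5, and Sema3g at 388 against 0 and 228 against 16.5. Cxcl12 was at 373 against 53.5 and 513 against 98.7 CPM. Fabp4, of the fatty acid uptake list and not an arterial gene, was at 1523 against 303 and 570 against 98.7. Of its 102 UMIs in the wild-type Mgp or Cytl1 cells, 51 lay in 1 cell, and members with a Gja5 UMI had no Fabp4 UMI in either library. Of the 14 arterial genes measured, 9 were lower in Slc6a2 cells and 0 higher, with medians of -1.36 and -2.10. Vwf was at 5229 against 3717 CPM and 4870 against 2582, under 2-fold in both libraries.

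**Figure D4:**
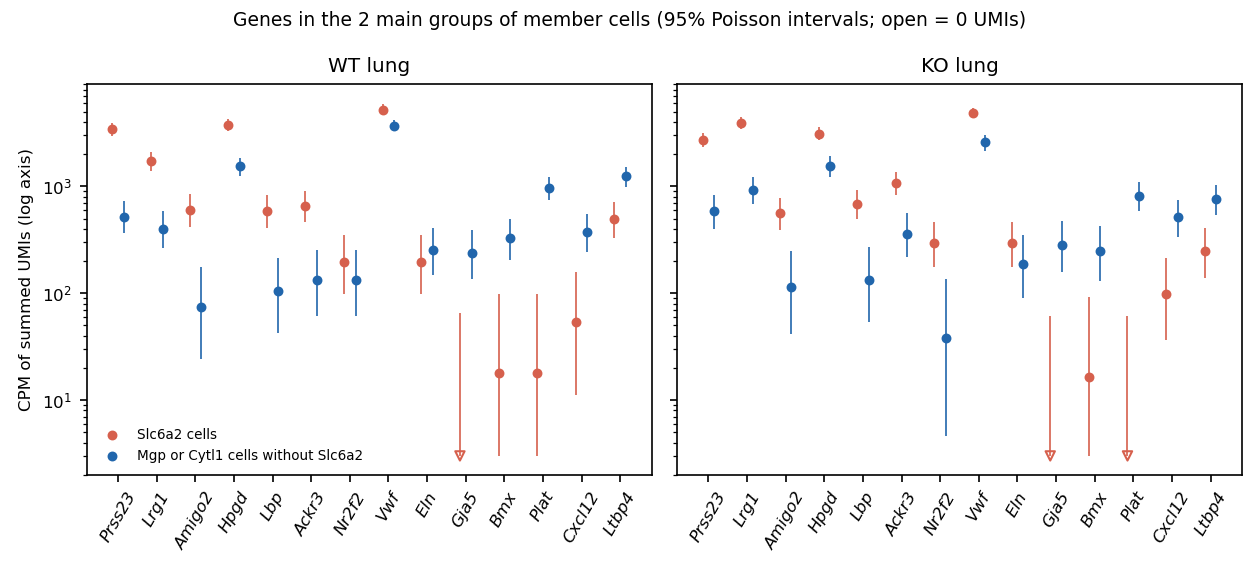
CPM on a log axis with 95% Poisson intervals for 14 genes in the Slc6a2 cells and the Mgp or Cytl1 cells without Slc6a2, for each lung library; open triangles are genes with 0 UMIs. Prss23, Lrg1, Amigo2, Lbp and Ackr3 sit higher in Slc6a2 cells, and Gja5, Bmx, Plat, Cxcl12 and Ltbp4 higher in Mgp or Cytl1 cells, in both libraries.

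Clustering of all kept lung cells without the 12 rule genes put most cells of these groups into different clusters. At a clustering resolution of 1, a cluster of 88 cells held 76 members (60.3% of all members). Of these, 52 had Slc6a2 and 17 were Mgp or Cytl1 cells without it. That cluster was led by Fabp4, Bst1, Car8, Tmem252 and Lrg1. A cluster of 59 cells held 33 members, 32 of them Mgp or Cytl1 cells and 0 with Slc6a2, and was led by Gja5, Adgrg6, Bmx, Sulf1 and Plac8. A cluster led by aerocyte genes (232 cells) held 0 members. At resolutions of 0.5 and 2, the cluster with most Slc6a2 cells held 17 and 13 of the Mgp or Cytl1 cells. At a resolution of 2, a further cluster of 12 cells held 6 members, 4 of them Mgp or Cytl1 cells and 1 with Slc6a2. It was led by Fabp4, Selp, Ackr1, Hspg2 and Adamts4. These clusters were made from the same cells and support no test.

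Aortic endothelium, sorted in the same way, was placed beside the members for the same genes. In the wild-type and knockout aorta libraries, Cytl1 was at 14537 and 11974 CPM and Mgp at 6549 and 9415 CPM, both above their levels in lung members. Slc6a2 was at 1.01 and 0.45 CPM and Prss23 at 171 and 158 CPM, both below them. Of the genes higher in lung members, Tmem252 was at 48.5 and 54.8 CPM in the aorta, Samd5 at 6.06 and 18.8 and Ptgs2 at 16.2 and 23.1 CPM, all below their levels in members. Others were higher in the aorta than in lung members: Fabp4 at 3795 and 2774 CPM, Bgn at 2290 and 2071, Ltbp4 at 1596 and 1052, Ctsh at 912 and 971 and Cd81 at 1228 and 1353 CPM. The aorta and lung libraries differ in tissue and in library, which cannot be told apart here.

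Knockout members were set beside wild-type members, where genotype cannot be told apart from library or from the mice pooled in it. Of 1635 genes measured, 75 were higher by 2-fold or more (4.59%) and 51 lower by as much (3.12%) in knockout members, with an all-gene median log2 ratio of 0.07. Without the 3 wild-type cells set apart, 51 of 1478 were higher (3.45%) and 24 lower (1.62%), of which 42 and 18 were shared with the first counts. With the members of at least 1000 UMIs thinned to that depth, 531 genes were measured, of which 16 were higher and 17 lower; 8 and 5 of these were among the 75 and 51. With median-of-ratios size factors the counts were 55 and 61. The ranked lower genes in the full comparison were mostly those of the set-apart cells: Gsn was at 4553 CPM in wild-type members and 0 in knockout, with 80% of its UMIs in 1 cell, and Dcn was at 1652 and 0 CPM. Inmt, Gpx3, Pcolce2, Serping1, Nbl1, Mt1, Mt2, Il6 and Sparcl1 were the others of that rank, and Tagln, at 701 against 93.0 CPM with all members, was 2.56-fold higher without these cells. The values below leave them out. Of the rule markers, given as a description, Slc6a2 was at 1.30-fold of wild type (0.98 to 1.74), Prss23 at 0.94-fold (0.78 to 1.14), Mgp at 1.21-fold (1.04 to 1.41) and Vwf at 0.81-fold (0.72 to 0.92). Mgp went apart by group, at 0.37-fold (0.24 to 0.55) in Slc6a2 cells and 1.76-fold (1.49 to 2.08) in Mgp or Cytl1 cells. Mgp helped to choose these cells, and 1 knockout cell held 128 of the 343 Mgp UMIs of the knockout Mgp or Cytl1 cells, so these ratios only describe the chosen cells. Apoe, the gene knocked out in all mice, was at 123 and 109 CPM.

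Class II histocompatibility genes, which present peptides to helper T cells, were higher in knockout members: of 7 such genes 3 were measured and all 3 passed 2-fold, with a median log2 ratio of 2.93. Of 12 class I and peptide-loading genes measured, 1 was higher and 0 lower, with a median of 0.55. Cd74, the invariant chain, was at 79.8 CPM in wild-type (11 UMIs) and 1147 CPM in knockout members (148 UMIs), a 14.4-fold ratio (7.80 to 29.4). It was 17.1-fold (7.09 to 54.0) in Slc6a2 cells and 9.11-fold (3.86 to 26.2) in Mgp or Cytl1 cells. It was found in 5 of 71 wild-type and 29 of 52 knockout members, 7.04% and 55.8%. Because knockout members were deeper, the 64 wild-type members (cells set apart included) and 43 knockout members with at least 1000 UMIs were also thinned to that depth, which gave 6.25% and 58.1%; unthinned, all members gave 8.11% and 55.8%. H2-Ab1 was at 50.8 and 388 CPM (7.63-fold, 3.44 to 19.9) and H2-Aa at 36.3 and 256 CPM (7.05-fold, 2.74 to 23.1). H2-Eb1 had too few UMIs for the measured list, 5 in wild-type and 22 in knockout members.

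Other classes of lung cells gave other ratios for Cd74. General capillary marker cells were at 206 and 862 CPM, 4.19-fold (3.33 to 5.31), with Cd74 in 16.9% and 48.2% of cells. Aerocyte marker cells were at 20.7 and 8.91 CPM, 0.43-fold (0.04 to 2.26) and had Cd74 in 2.27% and 2.06% of cells, the lowest shares of these classes at median depths of 2336.5 and 2033 UMIs. The knockout members' share of 55.8% was above that of aerocyte marker cells of the same library. All other kept cells together were 1.31-fold higher, and 3.59-fold (3.04 to 4.25) without the top cell of each library, which in the wild-type library held 410 of 610 Cd74 UMIs. Lyz2, a macrophage gene, had 0 UMIs in members. With at least 2 rule markers in place of 3, the members' log2 ratio for Cd74 was 2.23, against 3.16 with the rule, the cells set apart included in both. The difference between the members' ratio and the capillary cells' ratio was not tested.

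The promoters of H2-Aa and H2-Eb1, each on chromosome 17 (GRCm38.p6), are shown as the 150 bases before each gene's start, as promoters of class II genes for which the RefSeq table had an entry. H2-Aa itself lies at 34282744 to 34287823 on the minus strand (GENCODE M21). Capitals mark CCAAT, on either strand (ATTGG on the reverse), and TGACGTCA.

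H2-Aa, chr17:34287824-34287973, minus strand: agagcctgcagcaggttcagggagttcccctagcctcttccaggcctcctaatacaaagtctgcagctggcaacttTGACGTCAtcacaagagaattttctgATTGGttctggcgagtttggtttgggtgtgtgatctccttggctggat

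H2-Eb1, chr17:34305717-34305866, plus strand: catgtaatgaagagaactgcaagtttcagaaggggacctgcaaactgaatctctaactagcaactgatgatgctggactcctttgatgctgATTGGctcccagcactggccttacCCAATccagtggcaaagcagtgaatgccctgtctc

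In H2-Aa, CCAAT on the reverse strand lay 48 to 44 bases before the gene's start and TGACGTCA 74 to 67 bases before it. In H2-Eb1, CCAAT lay 59 to 55 bases before the start on the reverse strand and 35 to 31 on the forward strand, and TGACGTCA was not found. Of 32851 RefSeq promoter entries of this length, 24.5% held CCAAT and 1.36% held TGACGTCA, so these matches describe letters and not a site in use.

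Lrg1 was higher in knockout than in wild-type members, while its ratio in the other kept cells was under 1. The gene lies on chromosome 17, 56119678 to 56122001, on the minus strand (mm10, GENCODE M21). It stood at 965 CPM in wild-type and 2264 CPM in knockout members, 2.35-fold (1.90 to 2.90), and 2.14-fold (1.69 to 2.73) without the top cell of each library, which in the knockout library held 76 of 292 UMIs. In other kept cells it was 0.75-fold (0.62 to 0.91), in general capillary marker cells 0.92-fold (0.60 to 1.39) and in lymphatic marker cells 1.09-fold (0.74 to 1.58). The ratio was 2.31 in both the Slc6a2 cells (1.82 to 2.96) and the Mgp or Cytl1 cells (1.41 to 3.84). In the 9 and 4 members with none of the 3 genes it was the other way, at 677 and 129 CPM (0.19-fold, 0.02 to 0.89). Lrg1 was under 2-fold, at a log2 ratio of 0.35, without members holding 2 or more UMIs of other cell types, and at 0.72 in members without Slc6a2. Foxf1, a transcription factor of lung endothelium, was 2.29-fold higher in knockout members (1.65 to 3.22; 399 and 915 CPM) against 1.13-fold in other cells, and Pak2, a kinase, 4.12-fold (1.75 to 11.2; 50.8 and 209 CPM) against 0.99-fold. H2-Q7, a class I gene with near-identical copies and so uncertain, was 3.36-fold higher (2.36 to 4.87) in members and 2.02-fold in other cells. The surface protein gene Vsir was 3.42-fold higher (1.64 to 7.80) and the protease gene Adam15 2.63-fold (1.61 to 4.41), in Slc6a2 cells 6.22- and 3.27-fold and in Mgp or Cytl1 cells 1.27- and 1.16-fold. Rtl8a and Hspa1a were of that rank too, and both have near-identical copies. Scgb1a1, an airway secretory protein, ranked with them at 21.8 and 380 CPM. It had a UMI in 55.8% of knockout members and 52.6% of knockout aerocyte marker cells, and in other kept cells it was at 742 and 34737 CPM. There 1 cell of each library held most of its UMIs, 927 of 970 and 28398 of 31632, and without these cells it was at 32.9 and 3727 CPM.

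Of the genes lower in knockout members, Fabp4 was at 914 and 279 CPM, 3.28-fold lower (2.25 to 4.89), with 40.5% of the wild-type UMIs in 1 cell, and was 11.9-fold lower in other kept cells, those set apart included. With cells set apart left out, 1 wild-type cell held 63 of the 109 Fabp4 UMIs of other kept cells, against 7 UMIs in the knockout library. Without the top cell of each library these were at 35.2 and 5.50 CPM (0.16-fold, 0.05 to 0.39). Isg15, an interferon-stimulated gene, was at 319 and 69.8 CPM, 4.58-fold lower (2.20 to 10.7), and 1.06-fold of wild type in other kept cells, those set apart included. Of the 8 interferon response genes measured, 2 were higher and Isg15 was the 1 lower. Igfbp5 was at 239 and 38.8 CPM, 6.18-fold lower. Ltbp4 and Egr1 were 1.91- and 1.96-fold lower (813 to 426 and 777 to 395 CPM), and Mecom 2.57-fold lower (1.10 to 6.69). Of the arterial list, 14 genes were measured and 2 were lower, 0 higher, with a median of -0.26 against an all-gene median of 0.06. Mecom is 1 of these 2, and Ltbp4, under 2-fold, is not. Of 9 venous genes Lrg1 was higher and none lower. Lpin2, a phosphatidate phosphatase, had 7 wild-type and 1 knockout UMIs, too few to measure. The flow-responsive factor Klf2 was at 3912 and 3799 CPM, 0.97-fold (0.86 to 1.10), and Klf4 at 936 and 1318 CPM, 1.41-fold (1.11 to 1.78).

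**Figure D5:**
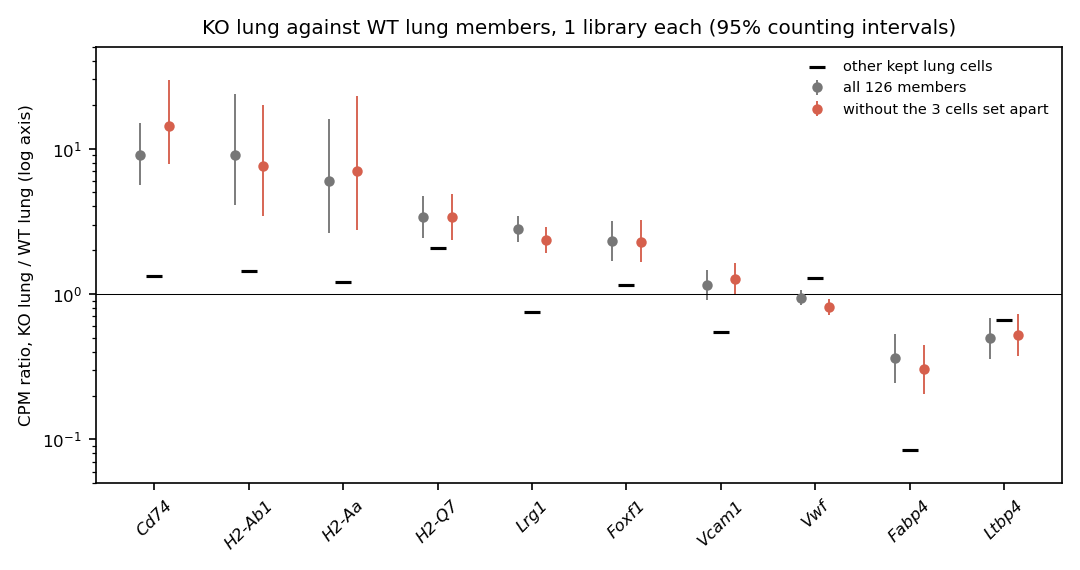
Ratio of knockout to wild-type CPM on a log axis for 10 genes in all 126 members and in members without the 3 cells set apart, with 95% counting intervals; bars mark the ratio in other kept lung cells. Cd74 is at 14.4 without the cells set apart, its bar for other kept cells rests largely on 1 wild-type cell (3.59 without the top cell of each library), Lrg1 is at 2.35 against 0.75, and Fabp4 is below 1 in members and in other cells.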

How the data were processed

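RNA of eYFP+ cells was measured by 10x Genomics Chromium, per the labels, with 1 library each for wild-type and knockout lung and aorta. The deposited values are whole UMI counts per gene and cell, read as raw counts; Cell Ranger and mm10 are named in the submitters' processing notes, with no versions. Ensembl identifiers were matched to symbols with GENCODE M21 (30934 of 31053 rows; 28 were merged). The members and gene lists were chosen with earlier results of these data known.

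Counts were summed over members and over all other kept cells of a library and divided by total UMIs (CPM). Genes were measured against others at a mean of at least 50 CPM and 20 UMIs per library, and between genotypes at 100 CPM and 30 UMIs. Ratios carry exact conditional intervals; 2-fold or more was the limit, in both libraries for members against others. Named genes were the 24 highest and 12 lowest against others and the 12 highest and 12 lowest between genotypes by the interval bound nearest 1, the venous and arterial lists, and Pou5f1, Apoe, Cd74, Lpin2, Klf2 and Klf4. One gene that the ranks named is not reported here. Scripts used numpy 2.4.6, pandas 2.3.3, scipy 1.17.1 and scanpy 1.11.5, were tested on simulated data, and were run again under other thresholds, thinning, size factors and cell sets. Depth ranged over 1506574 and 1052504 lung UMIs; a gene at 0 has a floor of 3 counts.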

Additional observations from a re-analysis of the deposited data

How the results depend on the processing

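No paired analysis was possible because each genotype has 1 lung library and the labels carry no replicate numbers that pair them. Against the 108 higher and 111 lower genes and 75 and 51 between genotypes: thinning to 1000 UMIs, with shallower cells left out and fewer genes measured, gave 63 higher and 16 and 17 between genotypes, or 67, 19 and 11 with the rule read on thinned cells. A rule of 2 markers gave shares of 16.6% and 18.5%, 63 and 61 genes, and 33 and 30 between genotypes; 4 markers gave 5.81% and 7.28%, and 33 and 23. A mean of 20 CPM gave 243 lower genes; 200 CPM gave 32 and 41, and 19 and 16; no filter gave 475 and 269, and 1253 and 933. Lower genes between genotypes were 27 without cells above 3 times the median UMIs, 29 without the top cell, and 24 without cells rich in fibroblast or smooth muscle markers; without cells with 2 or more UMIs of other types there were 29 and 29. Slc6a2 members alone gave 22 and 20, and the rest 38 and 18. Median-of-ratios size factors gave 55 higher and 61 lower.

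Of 1298 gene values recomputed, 1128 stayed within their interval, 157 moved past it, and 13 values of 2-fold or more changed sign. Log2 ratios of knockout to wild-type members spanned 2.23 to 4.01 for Cd74, 1.44 to 4.48 for H2-Aa, 0.35 to 1.63 for Lrg1 and 0.17 to 1.98 for Hspa1a. Of the sign changes, 1 was for members against others, Scgb1a1 in the wild-type library (log2 ratio 0.55, without other cell types). The 12 between genotypes, as log2 ratios, began with Serping1 and Tagln (0.39 each, thinned) and Inmt (0.10, 4 markers). Next were Tagln and Il6 (1.44 and 1.31, without the largest cells), Nbl1 (0.52, without other cell types) and Tagln (1.12 without the top cell, 1.36 without cells set apart). The last were Serping1 and Nbl1 (0.14 and 0.33, Slc6a2 members), and Vsir and Tagln (-0.0016 and 0.94, members without Slc6a2). The cause of these shifts was not tested. With 1 library per genotype, depth limits every value to counting error.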
